A study of Drosophila melanogaster with 2 samples.

Results

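Transfer RNA (tRNA) genes were set against the binding sites of Ada2b in fly embryos. The genes were all those annotated as tRNA genes on the main chromosome arms of *Drosophila melanogaster*, 290 of 312 in all, and the 22 left out were mitochondrial. They carried 22 amino-acid labels and 45 anticodons. Chromatin came from 1 group, whole embryos aged 0 to 18 h of a transgenic strain with an Ada2b-eGFP fusion, and was precipitated with an antibody to GFP in 2 biological replicates. The fusion was present in both replicates, and the embryos span many stages and all cell types, so that a peak is an average over them. For each gene the question was whether a peak summit lay within 500 bp of it, and whether a protein-coding transcription start site (TSS) lay within 500 bp of that summit.

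tRNA genes are transcribed by RNA polymerase III from a promoter that lies inside the gene. Its parts, the A box and the B box, are bound by the factor TFIIIC, which places TFIIIB and then the polymerase. Protein-coding genes use RNA polymerase II. Ada2b is an adaptor protein in SAGA, which acetylates histones through Gcn5 and is known for its work at polymerase II promoters.

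The genes are short, with a median length of 73 bp and a range of 71 to 186 bp. The genes below carry the results: Ser-AGA-2-4 holds a summit inside it, Pro-AGG-1-2, Leu-CAA-2-2 and Gln-TTG-2-1 lie near summits that have no coding TSS, Tyr-GTA-1-8 lies near the strongest summit, Asp-GTC-1-4 belongs to a pair that shares 1 summit, and Cys-GCA-1-2 belongs to the large cluster with summits in other lists. Each is written 5′ to 3′ on its own strand from the Release 6 genome, with the match to the B box letters GTTCNANNC in capitals.
Ser-AGA-2-4, chr2L:3173003-3173084, minus strand: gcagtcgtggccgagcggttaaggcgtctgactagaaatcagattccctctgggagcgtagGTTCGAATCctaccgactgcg
Pro-AGG-1-2, chr2L:14598859-14598930, plus strand: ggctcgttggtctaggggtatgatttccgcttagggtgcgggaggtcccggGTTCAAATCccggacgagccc
Leu-CAA-2-2, chr3L:13214109-13214233, plus strand: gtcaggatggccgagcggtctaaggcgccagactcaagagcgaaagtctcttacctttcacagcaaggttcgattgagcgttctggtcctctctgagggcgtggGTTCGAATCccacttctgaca
Gln-TTG-2-1, chrX:3427452-3427523, minus strand: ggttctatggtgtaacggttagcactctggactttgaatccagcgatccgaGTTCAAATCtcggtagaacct
Tyr-GTA-1-8, chr3R:8669081-8669174, minus strand: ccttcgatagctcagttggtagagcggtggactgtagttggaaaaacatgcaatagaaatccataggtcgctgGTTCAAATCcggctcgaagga
Asp-GTC-1-4, chr2L:8541552-8541623, minus strand: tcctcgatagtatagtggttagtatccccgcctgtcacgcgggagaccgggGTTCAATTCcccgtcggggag
Cys-GCA-1-2, chr3L:3095991-3096062, plus strand: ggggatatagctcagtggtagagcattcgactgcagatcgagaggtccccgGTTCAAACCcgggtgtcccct

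The same gene sequence often recurs: 238 of the 290 genes (82.1%) have an identical copy elsewhere on the arms. The Asp-GTC-1-4 sequence occurs 12 times and the Ser-AGA-2-4 sequence 5 times, while those of Gln-TTG-2-1, Leu-CAA-2-2 and Tyr-GTA-1-8 occur once. Reads that lie wholly inside a repeated gene cannot be assigned to 1 copy, and how the alignment treated them is not given in the sources used here. Of the 52 genes with a single-copy sequence, 4 lay within 500 bp of a conservative summit (7.69%), against 11 of the 238 with a repeated sequence (4.62%).

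The deposited lists were of 2 kinds. Of the 8, 4 were thresholded on the irreproducible discovery rate (IDR), a measure of how well the rank of a peak repeats: the conservative list with 4797 peaks, another series list with 4990, replicate 1 alone with 3762 and replicate 2 alone with 3020. The other 4 ranked all candidate peaks, from 53185 in replicate 2 to 92003 in the series list that pairs the replicates. The authors' signal of a peak is a caller score that is not normalized between lists, so that it is compared within a list, as a percentile from 0 (weakest) to 100 (strongest). Read depth is unknown from these lists.

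Few tRNA genes lay near a thresholded summit. In the conservative list they were 15 of 290 (5.17%, 95% Clopper-Pearson interval 2.92% to 8.39%), against 3.53% of all positions on the arms when a window of 73 bp stands in for a gene. In the other series list they were 18 (6.21%), against 3.67% of positions. In replicate 1 they were 14 (4.83%, interval 2.66% to 7.97%), against 2.80% of positions, and in replicate 2 they were 10 (3.45%, interval 1.67% to 6.25%), against 2.27% of positions. The replicates averaged 4.14% ± 0.975 (SD, n = 2). The positional share lay inside the interval of the tRNA genes in the conservative list and in both replicates, and just under it in the other series list, where the interval ran from 3.72% to 9.63%. Neighbouring tRNA genes can share a summit, so the intervals cover counting error only and treat genes as independent.

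**Figure D1:**
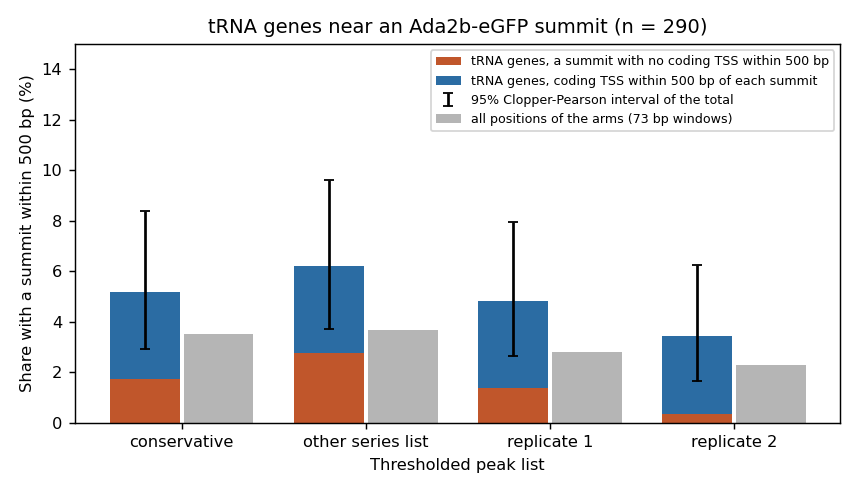
Share of the 290 tRNA genes with a summit within 500 bp in each thresholded list (coloured bars, split by whether a coding TSS lies within 500 bp of the summit), beside the share of all positions (grey bars). Error bars are 95% Clopper-Pearson intervals of the total; the tRNA share is highest in the other series list (6.21%) and lowest in replicate 2 (3.45%).

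Protein-coding genes had summits at their starts more often than tRNA genes. Measured from the first base of each gene, 5.17% of tRNA genes had a conservative summit within 500 bp, against 13.0% of all other annotated genes and 15.2% of protein-coding genes. The interval of the tRNA genes, 2.92% to 8.39%, does not overlap that of coding genes, 14.6% to 15.8%. The tRNA share stood beside 5.66% of ncRNA genes, 4.46% of snoRNA genes and 2.42% of pseudogenes.

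Most of the tRNA genes near a conservative summit shared it with a coding promoter. For 10 of the 15 each summit had a coding TSS within 500 bp, and 5 genes had a summit without one (1.72%, interval 0.562% to 3.98%), against 2.09% of all positions. By summit, 14 were near a tRNA gene, of which 8 had a coding TSS within 500 bp, while 40.8% of all conservative summits on the arms had one. In the other series list 8 genes had a summit with no coding TSS, in replicate 1 there were 4, and in replicate 2 there was 1. The 8 genes lay near 5 such summits and the 4 near 2. Of these genes, 5 of the 8 and 3 of the 4 belong to 1 Cys and Lys cluster on 3L. The positional share of such summits was computed for the conservative list only. No tRNA gene had such a summit in both replicates' thresholded lists.

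The share of tRNA genes near a conservative summit differed with the distance to the nearest coding TSS. Of the 33 tRNA genes with a coding TSS within 500 bp, 9 lay near a conservative summit (27.3%, interval 13.3% to 45.5%). Of the 92 with the TSS over 500 and up to 2000 bp away, 3 did (3.26%, interval 0.678% to 9.23%), and of the 165 with the TSS over 2000 bp away, 3 did (1.82%, interval 0.377% to 5.22%). The interval of the nearest class does not overlap those of the other 2 classes, though genes that share a summit count as independent. The share of all positions at these distances was not computed. The median distance to a coding TSS was 444 bp for the 15 genes near a summit, against 3031 bp for the 275 without one. Of the 156 tRNA genes outside coding genes 10 lay near a conservative summit, of the 127 in introns 5 did, and of the 7 over coding exons 0 did.

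**Figure D2:**
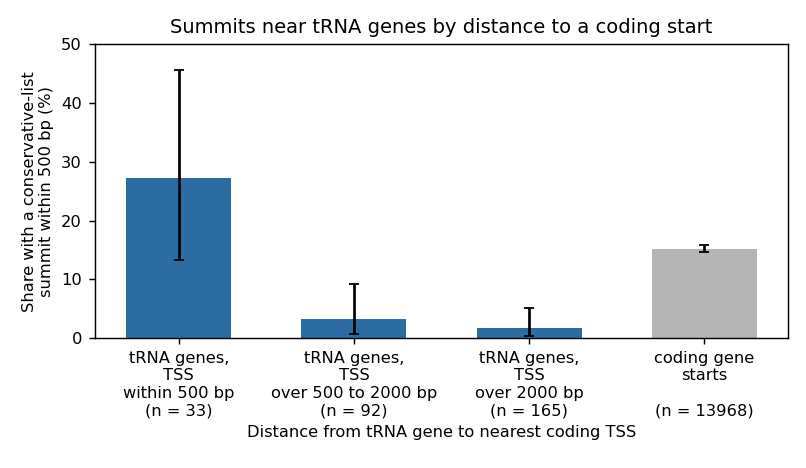
Share of tRNA genes with a conservative-list summit within 500 bp, by distance to the nearest coding TSS (blue), beside the starts of 13968 coding genes (grey); error bars are 95% Clopper-Pearson intervals. The share is 27.3% with a TSS within 500 bp and 1.82% beyond 2000 bp, beside 15.2% of coding gene starts.

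Of the genes beside a coding promoter, Tyr-GTA-1-8, which reads tyrosine codons, lay near the strongest summit. The summit was 196 bp upstream of the tRNA gene and 248 bp from a TSS of CG8036, and had a signal of 416 at rank 171 of the conservative list. Its signal was 274 in replicate 1 and 151 in replicate 2, at percentiles 99.8 and 99.5 of their ranked lists. The divergent pair Asp-GTC-1-4 and Asp-GTC-1-5, both aspartate tRNA genes, shared a summit of signal 116, which lay 137 bp from a TSS of Sema1a, a transmembrane semaphorin of axon guidance. Their common summit scored 60.4 in replicate 1 and 52.5 in replicate 2, at percentiles 97.0 and 97.1. Both summits were in the thresholded lists of both replicates, so percentiles near the top of the ranked lists follow largely from that choice.

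The other 7 genes of this kind had conservative signals between 73.8 and 112. Leu-TAA-2-1 lay 207 bp from a summit of signal 112, 368 bp from CG13605, with 49.6 in replicate 1 and 60.6 in replicate 2. His-GTG-1-3 lay 151 bp from a summit of signal 106, 99 bp from CG8490, with 64.4 in replicate 1 and 35.6 in replicate 2. Trp-CCA-2-2 and Gly-GCC-1-9 shared a summit of signal 90.1, 32 bp from CG30122. These genes decode leucine, histidine, tryptophan and glycine.

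Val-CAC-2-5, a valine tRNA gene, lay 404 bp from a summit of signal 88.5, 423 bp from the nicotinamidase gene Naam. Phe-GAA-1-2, a phenylalanine tRNA gene, lay 198 bp from a summit of signal 85.9, 35 bp from a TSS of the ribosomal protein gene RpL17. Pro-CGG-2-1, a proline tRNA gene, lay 289 bp from a summit of signal 73.8, 182 bp from the LIM-only gene Bx. All 10 genes beside a coding promoter were near a thresholded summit in both replicates. For Pro-CGG-2-1 the replicate 2 summit was another one, 473 bp upstream of the gene with a signal of 25.8, and had no coding TSS within 500 bp. Gly-GCC-1-9 was 439 bp from its summit in replicate 2 and 421 bp in replicate 1.

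Of the 5 genes near a summit with no coding TSS within 500 bp, 4 had peaks with a signal of at most 54.5. Gln-TTG-2-1, a glutamine tRNA gene in an intron, lay 221 bp downstream of a summit of signal 84.9, with 57.7 in replicate 1 and 26.5 in replicate 2. It was the only one of the 5 in a single-replicate thresholded list, that of replicate 1, and its nearest coding TSS, of CG14269, was 8063 bp from the summit. Leu-CAA-2-2, whose gene is 125 bp long, lay 486 bp from a summit of signal 54.5, with 43.0 in replicate 1 and 20.1 in replicate 2. Pro-AGG-1-2 lay 369 bp from a summit of signal 53.0, with 27.9 in replicate 1 and 24.9 in replicate 2. The nearest coding TSS was 15069 bp from the summit of Leu-CAA-2-2 and 10256 bp from that of Pro-AGG-1-2. Ile-AAT-1-8, an isoleucine tRNA gene, lay near a summit of signal 54.0 and another of 4.88. Its strongest summit had 31.4 in replicate 1 and 21.8 in replicate 2. These summits lay closer to coding starts, 600 and 697 bp from a TSS of ATP8A, and the gene itself lay 311 bp from one. In each of these genes the replicate 1 signal was the higher, on a scale that is not shared between the lists.

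Ser-AGA-2-4, a serine tRNA gene, was the only gene with a conservative summit inside it. The summit base lay 71 bases after the gene's first base, past the B box that begins at position 62, and had a signal of 48.8 at percentile 8.88 of the list. Its signal was 24.6 in replicate 1 and 23.7 in replicate 2, and neither replicate's thresholded list held it. The nearest coding TSS, of CG31698, was 827 bp from the summit. The next lines give 101 bp of the plus strand around this summit and around the summit near Gln-TTG-2-1, the strongest with no coding TSS, with the summit base in capitals.
Summit in Ser-AGA-2-4, chr2L:3172963-3173063: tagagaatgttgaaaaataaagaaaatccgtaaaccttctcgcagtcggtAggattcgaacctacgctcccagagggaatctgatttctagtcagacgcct
Summit near Gln-TTG-2-1, chrX:3427694-3427794: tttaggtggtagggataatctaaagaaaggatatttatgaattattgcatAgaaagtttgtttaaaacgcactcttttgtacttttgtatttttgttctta

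As a group, the 6 summits near tRNA genes with no coding TSS had a median percentile of 14.7 in the conservative list (range 0.834 to 49.0), against 46.4 for the 2831 other summits with no coding TSS. The 8 with a coding TSS had a median percentile of 57.2, against 55.8 for the 1951 other summits with one. The percentiles of the 8 ran from 39.1 to 96.5, so that both ranges overlapped.

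Around the 14 summits, 301 bp windows were searched on both strands. The B box letters GTTCNANNC were in 5 of 14 windows (35.7%), against 440 of 4782 around the other summits (9.20%). With the stricter letters GTTCGANNC, which are contained in the wider ones, they were in 3 of 14 (21.4%), against 2.53%. The wider letters were taken after the stricter counts had been seen. These windows reach 150 bp to each side of a summit. Among the conservative summits only the one inside Ser-AGA-2-4 lay that close to a tRNA gene. The next was 151 bp from His-GTG-1-3. Matches in the other windows therefore lie outside the tRNA genes, and what they mark was not tested. The wider letters were in 271 of all 290 tRNA genes and the stricter in 160. GAGAG was in 6 of 14 windows, against 35.1% of the others, and TATCGATA in 2 of 14, against 4.04%.

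**Figure D3:**
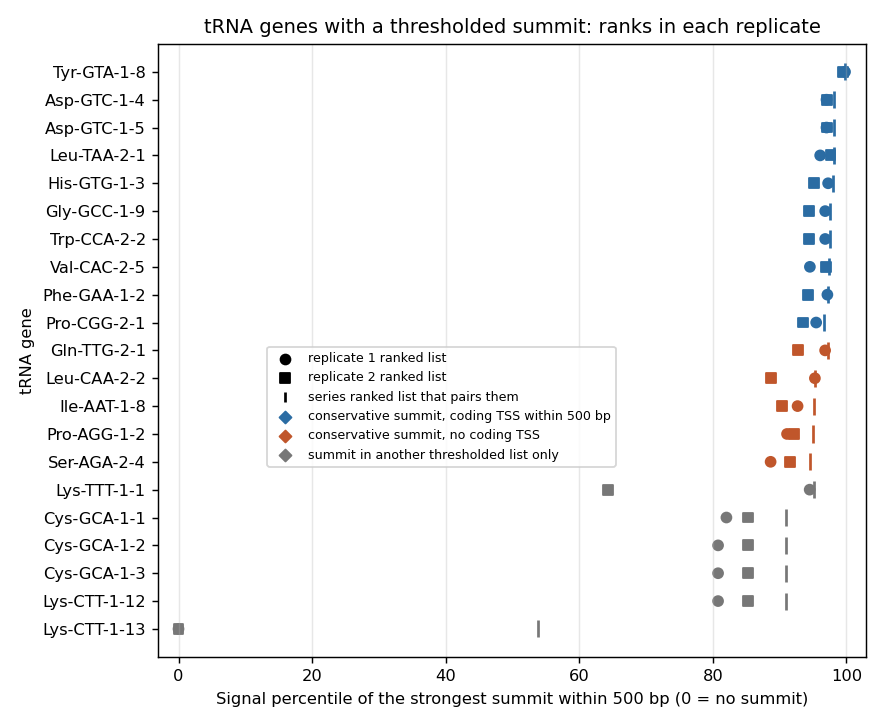
Signal percentile of the strongest summit within 500 bp for the 21 tRNA genes with a summit in any thresholded list, in the ranked list of replicate 1 (circles), of replicate 2 (squares) and of the series (bars). Genes beside a coding promoter (blue) lie between percentile 93.5 and 99.8 in the replicates. They were chosen for a thresholded summit, so high percentiles follow largely from the choice. Lys-CTT-1-13 has no summit in either replicate's ranked list.

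The lists held partly different genes. Both replicates' thresholded lists shared 10 genes, which is 10 of the 14 in replicate 1 and 10 of the 10 in replicate 2. The conservative list held 11 of the 14 and 10 of the 10, and 4 of its 15 genes were in neither. It shared 12 genes with the other series list, which left 3 in the conservative list alone and 6 in the other alone. The 6 were Lys-TTT-1-1 and 5 genes of 1 Cys and Lys cluster on 3L that shared summits. The same overlaps over all genes were not computed, so these counts are not read as particular to tRNA genes. In all, 21 genes were near a summit in some thresholded list and 269 in none. Among the 96 genes with a ranked summit in both replicates, their percentiles had a Spearman correlation of 0.521, as a description of genes that share libraries, and a median difference of 13.8 percentiles.

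By amino acid, the conservative list held genes for 12 of the 22 labels. Asp (of 14 genes), Leu (of 22) and Pro (of 17) had 2 each. Gln, Gly, His, Ile, Phe, Ser, Trp, Tyr and Val had 1 each. The 10 labels with none included Arg, the largest group with 26 genes, and Glu and Lys with 19 each. Ala and Thr had 17 each, Asn 10, Cys 7, Met 6, initiator Met (iMet) 6 and selenocysteine 1. With 0 to 2 genes per label, the counts do not separate one amino acid from another.

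The ranked series list gave a wider view. Its best percentile per gene, with 0 for no summit, had the highest median for iMet (83.5, 5 of 6 genes with a summit), followed by Asp (76.9, 11 of 14) and Ala (71.9, 12 of 17). It was 0 for Lys, where 7 of 19 genes had a summit, and for the 1 selenocysteine gene. Replicate 1 put iMet at 77.0 and replicate 2 at 39.5, and both put Lys at 0. Both also put Glu, Trp and Val at 0. Over all 290 tRNA genes the median was 23.6 in replicate 1 and 0 in replicate 2, so a value of 0 is not particular to Lys. In the ranked series list the neighbours iMet-CAT-1-1 and iMet-CAT-1-2 had the same value, 83.5. Genes of a label that lie side by side can share a summit, so these medians can count 1 locus more than once. No iMet gene had a thresholded summit, and 3 Lys genes had one outside the conservative list.

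**Figure D4:**
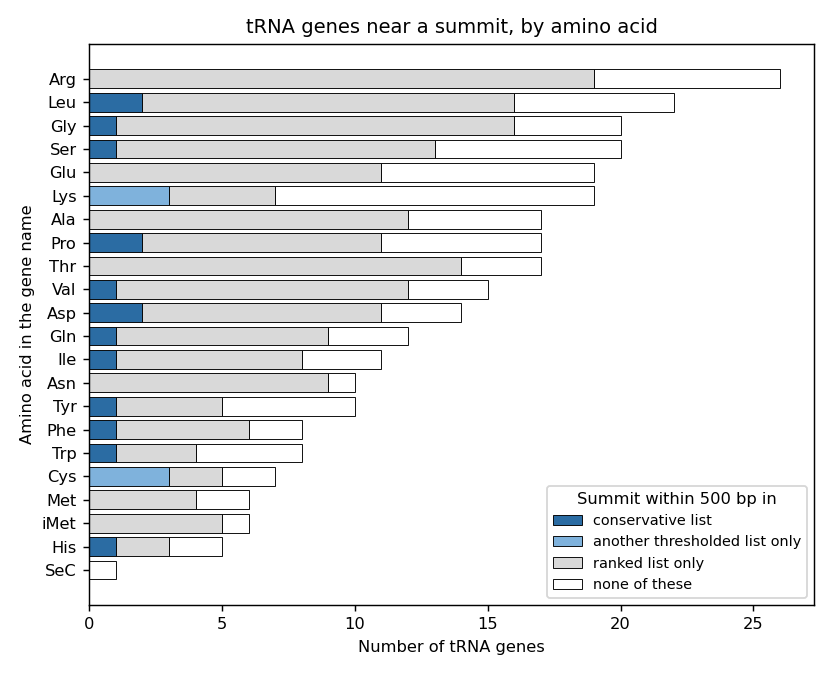
Number of tRNA genes per amino-acid label, split by the strictest list with a summit within 500 bp. Dark blue marks the conservative list (15 genes in 12 labels) and pale blue another thresholded list only, which occurs for Cys and Lys.

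By genome position, the genes formed 144 clusters when neighbours up to 5 kb apart were joined. Of these, 13 had a conservative summit near a member: 6 of the 76 single genes, 7 of the 58 clusters of 2 to 4 genes, and 0 of the 10 clusters of 5 or more. Those 10 clusters hold 72 genes, and 53 of the 72 had a summit in the ranked series list. In that list 200 of all 290 tRNA genes (69.0%) and 50.2% of positions had one. The largest, with 11 genes each, were at chr2R:6161535-6171759 (Arg, Asn, Ile and Lys) and chr3R:17617761-17631750 (Ala, Pro, Thr and Val). On 2R, 10 of the genes had a ranked summit, with a best percentile of 85.9, and on 3R it was 9 genes and 85.1.

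Of the other large clusters, the 7 genes at chr2R:19725620-19728958 (Glu and iMet) reached the highest percentile, 95.3, and the 6 Glu genes at chr3L:1397695-1401852 the lowest, 33.0. The 5 Gln genes at chr2L:2009155-2013250 reached 90.9, the 6 genes at chr3R:8139533-8141042 (Arg and Asn) 87.0 and the 6 Leu genes at chr3L:8060214-8068290 77.1. The 7 genes at chr2R:13430282-13432794 (Ile and Leu) reached 71.1, and the 7 at chrX:14014814-14017284 (Arg and Ser) 45.9. None of these had a summit in any thresholded list.

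The remaining large cluster, 4 Cys and 2 Lys genes at chr3L:3095737-3097590, differed between lists. It had 5 genes near a summit in the other series list and 3 in replicate 1, but 0 in replicate 2 and 0 in the conservative list. The summits had signals of 36.1 and 17.9 in the other series list, at its percentiles 3.59 and 2.85, and 19.8 in replicate 1, at percentile 2.47. The summit of 17.9 and that of replicate 1 lay inside Cys-GCA-1-3, with a −log10 q of 0.00845 and 0.242. No coding TSS lay within 10 kb of these summits, the nearest being that of Cht7, a chitinase gene, and Cys-GCA-1-1, Cys-GCA-1-2 and Cys-GCA-1-3 have the same sequence.

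By arm, 4 of 41 tRNA genes on 2L, 4 of 98 on 2R, 1 of 48 on 3L, 3 of 79 on 3R and 3 of 24 on X were near a conservative summit. Over all positions the shares were 3.87% on 2L, 3.34% on 2R, 3.67% on 3L, 3.47% on 3R and 4.01% on X. Just inside the limit of 500 bp were Val-CAC-2-5 at 404 bp, Gly-GCC-1-9 at 424 bp and Leu-CAA-2-2 at 486 bp. Just outside were Arg-TCT-1-1 at 592 bp, Ile-AAT-1-9 at 659 bp and Tyr-GTA-1-7 at 665 bp. The median distance of a tRNA gene to the nearest conservative summit was 8563 bp.

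In the ranked lists, which hold all candidates, summits near tRNA genes were common, as were summits elsewhere. In the series list that pairs the replicates, 200 genes had one (69.0%), against 50.2% of positions, and in the other series list 188 did (64.8%), against 47.5%. In replicate 1 it was 161 genes (55.5%), against 39.6% of positions, and in replicate 2 it was 139 (47.9%), against 35.5%. Measured from the first base, 66.2% of tRNA genes had a summit in the paired list, against 64.9% of all other annotated genes and 67.5% of coding genes. Of the 290 genes, 91 had a summit in all 4 ranked lists and 54 in none.

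The 212 paired-list summits near tRNA genes had a median percentile of 58.9 and a median signal of 19.2, against a median signal of 17.0 over the whole list. With genes that have no summit counted as 0, the median best percentile was 42.5 from the first base of tRNA genes, against 47.5 for all other genes and 54.0 for coding genes. Within 500 bp of the tRNA gene, 16 genes had a summit above the 95th percentile (5.52%), against 13.2% of all other gene starts and 15.5% of coding gene starts. Above the 90th percentile there were 42 (14.5%), against 20.5% and 23.4%. The summits lay upstream in 156 gene and summit pairs, inside the gene in 26 and downstream in 111.

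Along the gene the candidates had no sharp maximum at the tRNA gene. In bins of 200 bp from 2000 bp before to 2000 bp after its middle, there were 0.707 to 1.09 summits per kb per gene. At coding starts the bin just upstream held 1.37 summits per kb per gene and the other bins 0.736 to 0.932, and the mean over the arms was 0.665.

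**Figure D5:**
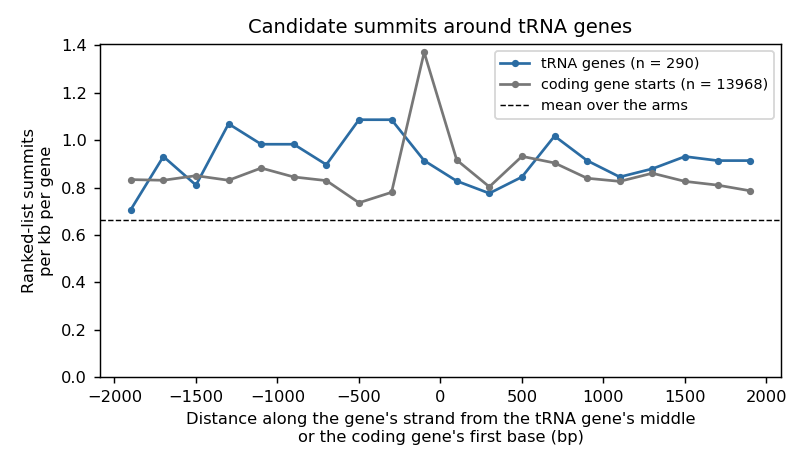
Candidate summits per kb per gene in 200 bp bins around the middle of 290 tRNA genes (blue) and the first base of 13968 coding genes (grey), from the ranked series list, with the mean over the arms (dashed, 0.665). The coding curve peaks just upstream of the start at 1.37, while the tRNA curve stays between 0.707 and 1.09.

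Of the genes with no thresholded summit, the strongest ranked candidates were near Glu-TTC-1-5 (percentile 95.3, score 526), Glu-CTC-3-1 (percentile 94.4, score 592), Gly-GCC-1-13 and Trp-CCA-2-6 (1 shared summit, percentile 94.1, score 645) and Ile-TAT-1-1 (percentile 93.8, score 598). Scores here come from the authors' rescaled IDR, and the lowest in a thresholded list was 830. The shared summit lay near a TSS of tud, a germ plasm gene, and the summit of Ile-TAT-1-1 lay inside the tRNA gene. The other summits had no coding TSS within 500 bp. For Glu-TTC-1-5 replicate 2 had no summit within 500 bp, and for Trp-CCA-2-6 neither replicate had one. Trp-CCA-2-6 lay 475 bp from the shared series summit, close to the limit. Gly-GCC-1-13 had a summit in both replicates, at percentiles 88.0 and 83.0.

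The genes that make and process tRNA were read as coding genes, with a summit within 500 bp of any of their starts. Of all coding genes 2444 had one in the conservative list (17.5%). Of the 25 genes for the polymerase III machinery 7 had one. Among them were Bdp1 and Brf, subunits of TFIIIB, with signals of 296 and 232, and the polymerase subunit genes Polr2H (218), Polr3E (111), Polr2F (74.1) and Polr1D (59.6). Polr2H, Polr2F and Polr1D encode subunits shared with other polymerases.

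Of the 21 genes for tRNA processing and export 6 had a summit. The strongest were at Trmt6, part of a tRNA methyltransferase, with a signal of 579, and at RluA-1, a pseudouridine synthase gene, with 362. Both were in the thresholded lists of both replicates, Trmt6 with 287 in replicate 1 and 307 in replicate 2. Of 10 other genes of RNA polymerase III, which included U6 and 7SK RNA genes, 1 had a conservative summit, snRNA:7SKa, with a signal of 61.4 and no coding TSS within 500 bp. The other series list and replicate 1 held 3 of the 10 each, with snRNA:U6:96Ab and snRNA:U6:96Ac beside it, and replicate 2 held 0. Over all positions the shares in these lists were 3.67%, 2.80% and 2.27%. Both U6 genes had the same signal in each list, 55.2 and 45.6, so they may share 1 summit. Of ncRNA gene starts 5.66% had a conservative summit. Of the 96 5S rRNA genes 0 had one. They also had 0 in the ranked series list that pairs the replicates, where 50.2% of positions had a summit, and 0 in the ranked list of replicate 2, where 35.5% did. The other ranked series list held 3 of the 96, against 47.5% of positions. The ranked list of replicate 1 also held 3, against 39.6% of positions. Whether reads can be assigned to single 5S rRNA genes was not examined, and neither was whether these genes are separate loci. No limit on their share and no lack of binding is read from these counts.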

How the data were processed

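Peak lists of Ada2b-eGFP ChIP-seq from 2 replicates were deposited by the authors. Per the file headers and notes, they came from alignments to dm6, a control and, for the thresholded lists, a further file that is not described. Aligner, caller and versions: not given in the sources used here. Each peak has a score, the deposited rescaled IDR, and a signal, a deposited caller score. The −log10 values deposited are a −log10 q. The summit was taken from the deposited positions, as peak start plus offset.

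Genes came from Ensembl release 115 and sequence from NCBI Release 6. Distances ran from the summit to the nearest base of the tRNA gene. Positional shares are of all 73 bp windows of the 7 arms. The distance search was tested on simulated data. No test was run over the genes: counts have 95% Clopper-Pearson intervals. All genes near a conservative summit could be named, as could the 5 strongest ranked candidates. The genes and lists were chosen with earlier results of these data known. With 1 group, no groups were compared. Alternatives are in the closing section. Intervals used scipy 1.17.1 and figures matplotlib 3.10.9, under Python 3.11.15 with pandas 2.3.3 and numpy 2.4.6.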

Additional observations from a re-analysis of the deposited data

How the results depend on the processing

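Under 16 of 35 alternatives the result moved by at most 1.5 times, or, for the median percentile, by less than the SD between the replicates' medians. These included any overlap with the peak, distance from the first base, and clusters joined over 2 or 10 kb. Against 15 tRNA genes near a conservative summit, the stronger peaks by signal gave 8, windows of 250 bp gave 8 and of 1000 bp gave 28, and single replicates 10 to 14. Against 5 genes with no coding TSS, the other thresholded list gave 8, the stronger peaks 0, 250 bp 3, 1000 bp 10, single replicates 1 to 4, and 1000 bp between summit and TSS 3. Against 13 clusters, the stronger peaks gave 6, 250 bp 8, 1000 bp 22 and single replicates 8 to 10. Against a median best percentile of 44.2, single replicates gave 0 to 23.6, 250 bp gave 0, 1000 bp 76.5 and 1 value per cluster 62.6. The stricter B box letters gave 3 summits, against 5 with the wider letters, which were taken after the stricter counts had been seen. The causes were not tested, beyond wider windows and longer lists holding more summits by construction. No paired analysis was possible because there is 1 group. Read depth is unknown. All genes and peaks come from the same 2 replicates, so their number does not stand in for replication.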
